A study of Mus musculus with 6 samples.

Results

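The Hox genes of primary mouse dermal fibroblasts were examined after exposure to 5-aza-2'-deoxycytidine and in untreated cultures. All 48 probe sets whose single listed gene is a numbered Hox gene of the a, b, c or d cluster were taken, with no filter on signal. They stand for 33 of the 39 Hox genes in the mouse annotation, and for 48 of the 45037 probe sets tested. HoxA was represented by 9 of 11 genes, HoxB by 9 of 10, HoxC by 7 of 9 and HoxD by 8 of 9.

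In the 3 treated cultures 5-aza-2'-deoxycytidine (decitabine, a cytidine analogue that traps DNA methyltransferases on DNA) was present at 5 µM for 96 hours, made up fresh every 24 hours. A further 24 hours in medium without the drug followed. The 3 control cultures were untreated. All cultures were passage 4 explant cultures from the dermis of B6 mice aged 0 to 2 days, of both sexes, and each group has 1 expression array per culture, n = 3. The labels name the dermis as the tissue and give no body site, and a culture explanted from skin can hold cells other than fibroblasts.

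Hox genes encode homeodomain transcription factors. They lie in 4 clusters, and genes in the same position of different clusters form a paralogue group, numbered from 1 to 13. Low-numbered groups are used towards the head of the embryo and high-numbered groups towards the tail and the ends of the limbs. Fibroblasts of adult human skin are known to keep a Hox pattern that reflects the body site they came from. In the annotation (GRCm38.p6) HoxA lies on chromosome 6 from 52155367 to 52260880 and HoxB on chromosome 11 from 96194316 to 96368254. HoxC lies on chromosome 15 from 102921131 to 103036856 and HoxD on chromosome 2 from 74668225 to 74765142.

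The values are microarray signals scaled to a common trimmed mean, and changes are log2 differences, treated minus control, after a pseudocount of 9.66 signal units was added. On the deposited scale the trimmed mean of an array was between 149.2 and 209.4 in treated and between 179.1 and 223.9 in control cultures. Correlations of log2 signal over all probe sets were 0.967 to 0.968 within treated cultures, 0.967 to 0.970 within control cultures and 0.925 to 0.935 across groups. The 3' to 5' signal ratio of the Actb control probe sets was 1.16 ± 0.0191 in treated and 1.26 ± 0.0101 in control cultures (SD, n = 3). The exact two-sided permutation test gave p = 0.1, the lowest value possible with 3 arrays a group. For Gapdh the ratio was 0.764 ± 0.0242 in treated and 0.739 ± 0.0155 in control cultures (exact permutation p = 0.2).

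The cultures carried the markers of dermal fibroblasts. All 10 markers listed for this cell type, among them Col1a1, Pdgfra, Dpt and Thy1, lay above the array median on all 6 arrays. They moved with the treatment: 9 of the 10 fell and 0 rose, and their summed signal was 15462 to 20918 in treated and 47883 to 55292 in control cultures. Of all genes above the array median on all 3 control arrays, 21.2% were called lower and 16.2% higher (limma, adjusted p under 0.05). The summed signal of 7 keratinocyte markers was 415 to 529 in treated and 354 to 410.2 in control cultures, with 0 members called. For 6 endothelial markers it was 359 to 420.1 in treated and 257 to 313 in control cultures, and for 6 leukocyte markers 321 to 458 in treated and 221 to 326 in control cultures. For 5 melanocyte and Schwann cell markers it was 326 to 463 in treated and 334 to 465 in control cultures. The summed signal of 6 skeletal muscle markers was 4683 to 5394 in treated and 781 to 928 in control cultures, most of it from the muscle actin Acta1. Esam, Cd68, Acta1 and Des were the called members of these lists, all higher, beside 25.2% of all genes called and 12.2% called higher. Below the median on all 6 arrays lay 4 of the keratinocyte, 2 of the endothelial, 3 of the leukocyte, 1 of the melanocyte and Schwann cell and 2 of the muscle markers. Above it on all 6 arrays lay 2 of the keratinocyte, 1 of the endothelial and 1 of the leukocyte markers. The same held for 2 of the melanocyte and Schwann cell and 3 of the muscle markers. In bulk cultures fewer cells of a type and less RNA per cell cannot be told apart. The part of these marker changes in the Hox values below was not tested.

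Untreated fibroblasts had signal for Hox genes of paralogue groups 2 to 6 and 8 to 11, and for none of the measured genes of groups 1, 7, 12 and 13. A gene was counted as having signal when its brightest probe set lay above the median of the array on all 3 control arrays. This held for 19 of 33 Hox genes, and for 59% of all 18193 genes. Probe sets differ in brightness, so their levels are not ranked against each other.

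Among measured genes HoxC was the most complete. Its genes Hoxc4, Hoxc5, Hoxc6, Hoxc8, Hoxc9 and Hoxc10 all had signal, and Hoxc13, at the tail end of the cluster, lay below the median on every control array. Hoxc11 and Hoxc12, which lie between Hoxc10 and Hoxc13, had no member probe set and were not measured. In HoxA the genes with signal were Hoxa3, Hoxa5, Hoxa9, Hoxa10 and Hoxa11. In HoxB they were Hoxb2, Hoxb3, Hoxb4, Hoxb6 and Hoxb9, and in HoxD they were Hoxd3, Hoxd8 and Hoxd9. Both members of paralogue group 8 and all 4 members of group 9 were above the median, as were 0 of 4 members of group 13 and 0 of 2 members of group 1. Hoxb13, known from prostate and hindgut, had 1.38, 1.94 and 1.83 signal units in control cultures. Hoxa13, a gene of the distal limb and genital tubercle, lay at the boundary, with 45.7, 63.0 and 54.6 units.

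Between the 3 control cultures, each explanted separately, Hox genes counted as having signal had a slightly wider median range than all genes with signal. The other Hox genes are left out by this choice, and their control ranges ran from 0.07 (Hoxb13) to 1.33 (Hoxd11) on the log2 scale. Over the 19 genes with signal the range between control arrays had a median of 0.33 and a maximum of 0.60 on the log2 scale, where all genes with signal had a median of 0.27. In the treated cultures the same 19 genes had a median range of 0.40 and a maximum of 0.93.

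**Figure D1:**
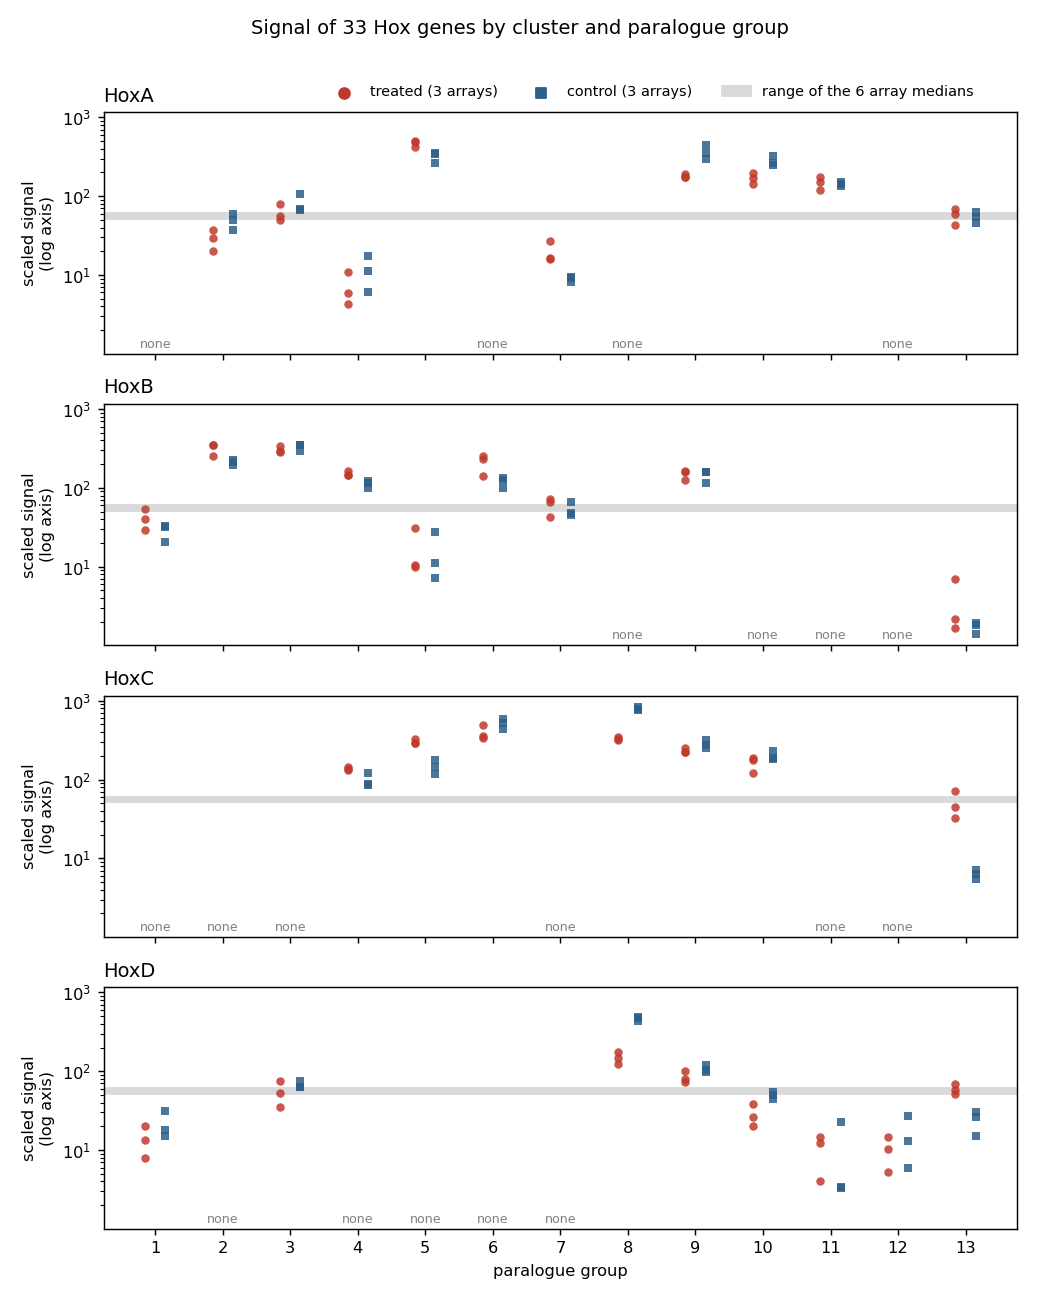
Scaled signal (log axis) of the brightest probe set of 33 Hox genes by paralogue group, 1 panel for each cluster, with red circles for the 3 treated and blue squares for the 3 control arrays. The grey band is the range of the 6 array medians, and "none" marks positions with no member; 19 genes lay above the median on all 3 control arrays, 6 of them in HoxC.

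After treatment 10 of the 33 Hox genes differed, 6 higher and 4 lower. Hoxc13, Hoxd13, Hoxc5, Hoxb6, Hoxb2 and Hoxa5 rose, and Hoxd8, Hoxc8, Hoxa9 and Hoxa10 fell. A gene was called when its brightest probe set had an adjusted p under 0.05 by limma over all 45037 probe sets. By the same rule 25.2% of all 18193 genes were called, 12.2% higher and 13% lower, so a share of this size was the background in these cultures. The median log2 change was 0.04 over the Hox genes and 0.02 over all genes. Among the 19 Hox genes with signal in control cultures 4 rose and 4 fell, where 37.4% of all such genes were called, 16.2% higher and 21.2% lower. The treated and control arrays did not overlap for 15 of the 33 Hox genes, 9 with treated above and 6 with treated below. For all genes these shares were 41%, 20.3% and 20.7%. By probe set, 12 of the 48 were called, 7 higher and 5 lower, beside 18.9% of all probe sets, 9.07% higher and 9.8% lower. Without scaling between arrays 5 Hox genes were called, and Hoxa5, Hoxa10, Hoxb2, Hoxb6 and Hoxd13 were not. With no intensity trend Hoxa5, Hoxb2 and Hoxb6 were not called.

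The lower and the higher genes lay at different positions along the clusters. All 4 genes that fell belong to paralogue groups 8 to 10, where 9 genes were measured and 0 rose. All 6 that rose belong to groups 1 to 7 (4 of 17 rose, 0 fell) or 11 to 13 (2 of 7 rose, 0 fell). Genes with signal in control cultures made up 10 of 17, 8 of 9 and 1 of 7 of these bands, taken along the cluster. Over all genes 12.2% were called higher and 13% lower, and over all genes with signal in control cultures 16.2% and 21.2%. Among all 7457 genes without it, 474 were called higher and 86 lower. A probe set that lists a pair of genes of groups 1 to 7, and is therefore no member, fell (-1.51 ± 0.32, adjusted p = 0.0107). These bands were drawn after the values were seen, and the difference between them was not tested. The median log2 change was 0.14 in groups 1 to 7, -0.67 in groups 8 to 10 and 0.13 in groups 11 to 13. 

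**Figure D2:**
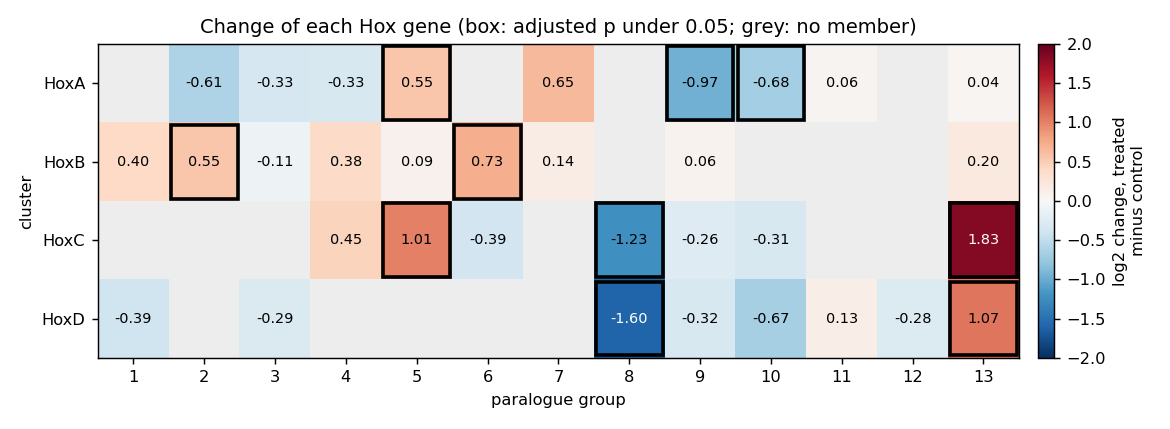
Log2 change, treated minus control, of the brightest probe set of each Hox gene, with clusters as rows and paralogue groups as columns; red is higher and blue lower in treated cultures, boxes mark adjusted p under 0.05 and grey marks positions with no member. The 4 boxed lower genes are Hoxa9, Hoxa10, Hoxc8 and Hoxd8, and the 6 boxed higher genes lie in groups 2, 5, 6 and 13.

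The promoters of 4 called genes are shown because 5-aza-2'-deoxycytidine acts on methylation at CpG dinucleotides, which are in capitals; DNA methylation itself is not analysed here. Each run is 250 bases before to 50 bases after the gene's start, 5′ to 3′ on the gene's strand, from RefSeq (GRCm38.p6). The first pair fell and the second pair rose.
Hoxd8, chr2:74704365-74704664, plus strand: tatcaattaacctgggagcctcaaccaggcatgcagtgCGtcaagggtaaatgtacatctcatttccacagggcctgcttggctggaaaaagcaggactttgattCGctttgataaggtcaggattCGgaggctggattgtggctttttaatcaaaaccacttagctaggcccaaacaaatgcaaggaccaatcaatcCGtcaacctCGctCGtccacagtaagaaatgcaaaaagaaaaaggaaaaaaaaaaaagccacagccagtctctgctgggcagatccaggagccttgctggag
Hoxa9, chr6:52227321-52227620, minus strand: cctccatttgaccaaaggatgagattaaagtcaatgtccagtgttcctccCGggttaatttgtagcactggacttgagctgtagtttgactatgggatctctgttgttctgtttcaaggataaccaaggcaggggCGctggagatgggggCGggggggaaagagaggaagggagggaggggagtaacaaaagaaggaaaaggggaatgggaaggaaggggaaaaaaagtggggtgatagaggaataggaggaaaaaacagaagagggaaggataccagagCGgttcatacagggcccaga
Hoxa5, chr6:52204538-52204837, minus strand: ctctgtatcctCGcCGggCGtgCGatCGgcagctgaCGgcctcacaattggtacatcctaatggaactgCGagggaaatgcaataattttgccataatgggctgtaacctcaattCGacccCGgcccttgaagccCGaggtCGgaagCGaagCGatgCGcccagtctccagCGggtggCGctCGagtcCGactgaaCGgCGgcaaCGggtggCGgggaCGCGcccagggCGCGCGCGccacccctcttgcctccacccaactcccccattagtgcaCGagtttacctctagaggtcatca
Hoxd13, chr2:74667975-74668274, plus strand: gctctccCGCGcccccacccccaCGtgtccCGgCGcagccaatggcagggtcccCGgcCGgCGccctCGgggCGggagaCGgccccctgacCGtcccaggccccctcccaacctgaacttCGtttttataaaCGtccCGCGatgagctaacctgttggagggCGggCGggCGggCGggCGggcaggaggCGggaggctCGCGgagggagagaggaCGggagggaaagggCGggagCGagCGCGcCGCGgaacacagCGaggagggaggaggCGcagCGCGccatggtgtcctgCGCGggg
The promoter of Hoxd8 holds 6 CpG dinucleotides and that of Hoxa9 holds 4, counts that 56.4% and 68.6% of 32851 promoters of this length reach. The promoter of Hoxa5 holds 29, which 12.9% of promoters reach, and that of Hoxd13 holds 37, which 5.58% reach. Hoxa10, which also fell and is not printed, has a pair of listed starts with 21 and 12, counts that 24.8% and 39.6% of promoters reach. The genes that fell were thus not all low in CpG dinucleotides. The table held 24 promoters of 22 Hox genes, and those of the other called genes, Hoxc8, Hoxc5, Hoxc13, Hoxb2 and Hoxb6, were not in it. Promoters of the 14 measured genes that were not called held 4 to 45 CpG dinucleotides, with a median of 15, a range that holds the counts of all called genes in the table. Over the 24 Hox promoters the median was 14.5, and over all promoters it was 7. The letters CCAAT, on either strand, were in 15 of the 24 Hox promoters and in 37.4% of all, and the letters GGGCGG in 10 and in 35.7%. TATAAA was in 4 and in 13.6%, and TGATNNAT, a sequence that Hox and Pbx proteins bind together, in 4 and in 8.85%. These are matches of letters in these windows and do not show binding.

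Hoxd8, which helps to pattern the trunk, had the largest fall among the Hox genes. It had 123, 148 and 174 signal units in treated cultures, against 469, 493 and 435 units in control cultures. Every treated array lay below every control array, and the log2 change was -1.60 ± 0.13 (SE; limma, adjusted p = 5.92e-05). A dimmer probe set of the same gene, whose name marks probes shared between transcripts, had 156, 117 and 131 units in treated and 331, 233 and 338 units in control cultures, a log2 change of -1.09 ± 0.17 (adjusted p = 0.00202). Both readings of Hoxd8 fell.

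Hoxc8, a gene of thoracic skeletal identity and of brachial motor neurons, also fell. It had 321, 349 and 331 units in treated cultures, against 839.9, 783 and 768 units in control cultures. The groups were far apart and each was tight, with a log2 change of -1.23 ± 0.08 (SE; limma, adjusted p = 1.51e-05). Hoxc8 and Hoxd8 are the measured members of paralogue group 8, and both kept their direction and their call in all 16 alternative settings run, with log2 changes between -1.31 and -1.17 for Hoxc8 and between -1.72 and -1.35 for Hoxd8.

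Hoxa9, best known as a partner of Meis1 in leukaemia, fell at its brighter probe set. That probe set had 192, 177 and 174 units in treated and 357, 297 and 447 units in control cultures, a log2 change of -0.97 ± 0.15 (SE; limma, adjusted p = 0.00178). The treated arrays were all lower. Its other probe set had 209.9, 244 and 245 units in treated and 246, 249 and 256 units in control cultures, with a log2 change of -0.10 ± 0.10 (adjusted p = 0.588). The probe sets of Hoxa9 thus differ in the size of the change, and the mean over both changed by -0.54 (adjusted p = 0.0057).

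Hoxa10, a gene of lumbar vertebrae and the uterus, fell at a probe set that detects several transcripts of the gene. It had 142, 195 and 172 units in treated and 249, 262 and 321 units in control cultures, a log2 change of -0.68 ± 0.15 (SE; limma, adjusted p = 0.0117). The groups did not overlap. A probe set below the median on all arrays had a log2 change of 0.30 ± 0.36 (adjusted p = 0.669). The mean over both probe sets changed by -0.19 (adjusted p = 0.607), and without scaling between arrays the change was -0.75 (adjusted p = 0.0835).

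The other genes of groups 8 to 10 were not called, and all but Hoxb9 had negative changes. The log2 changes were -0.26 ± 0.12 for Hoxc9 (adjusted p = 0.186), -0.31 ± 0.18 for Hoxc10 (adjusted p = 0.3) and -0.32 ± 0.19 for Hoxd9 (adjusted p = 0.326). Hoxd10, a limb and lumbar gene near the array median, had 38.5, 26.3 and 20.02 units in treated and 50.2, 43.8 and 54.8 units in control cultures, with a change of -0.67 ± 0.30 (adjusted p = 0.179). Hoxb9 changed by 0.06 ± 0.17 (adjusted p = 0.861), with overlapping groups.

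Hoxc5, a gene of the neck and upper trunk, was the clearest riser among genes that already had signal in control cultures. It had 331, 290.0 and 289 units in treated cultures, against 178, 146 and 119 units in control cultures. All treated arrays were above all control arrays, with a log2 change of 1.01 ± 0.15 (SE; limma, adjusted p = 0.00167). Another probe set of Hoxc5 had 131, 101 and 92.2 units in treated and 40.0, 62.3 and 46.6 units in control cultures, a change of 0.99 ± 0.24 (adjusted p = 0.0183). The last probe set of the gene was dim, with a change of 0.48 ± 0.26 (adjusted p = 0.267). The call of Hoxc5 held in all 16 alternative settings, between 0.83, the mean of its probe sets, and 1.14.

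Hoxa5, which acts in the lung and at the boundary of neck and trunk, rose. It had 503, 426 and 490.4 units in treated and 264, 344 and 356 units in control cultures, a log2 change of 0.55 ± 0.13 (SE; limma, adjusted p = 0.0162). The groups did not overlap. A second probe set had 109.7, 89.5 and 103 units in treated and 48.5, 36.3 and 83.1 units in control cultures, a change of 0.81 ± 0.28 (adjusted p = 0.0847). The annotated position of Hoxa5 lies within that of Hoxa3, and the name of its brighter probe set marks probes that can match other transcripts. Without treated replicate 1 or 3 the adjusted p of Hoxa5 was 0.0669 and 0.0562.

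Hoxb2, a hindbrain gene, rose. It had 348, 346 and 254 units in treated and 213, 226 and 193 units in control cultures, a log2 change of 0.55 ± 0.14 (SE; limma, adjusted p = 0.0236). The groups did not overlap, with treated replicate 3 the nearest to the controls. Without treated replicate 1 or 2, or control replicate 1 or 3, its adjusted p was between 0.0590 and 0.0930.

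Hoxb6, known from lateral plate mesoderm, passed narrowly. It had 234, 254 and 143 units in treated and 127, 134 and 100.0 units in control cultures, a log2 change of 0.73 ± 0.22 (SE; limma, adjusted p = 0.0497). The third treated array lay close to the controls. The call was lost on leaving out any 1 array other than treated replicate 3, with adjusted p-values between 0.0758 and 0.166.

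Of the 3 measured genes of group 4, Hoxc4 and Hoxb4 were above their controls on every treated array without passing the test, and the dim Hoxa4 changed by -0.33 ± 0.27 with overlapping groups. Hoxc4 had 135, 143 and 131 units in treated and 85.0, 122 and 88.0 units in control cultures, with a log2 change of 0.45 ± 0.17 (SE; limma, adjusted p = 0.12; 0.60 with adjusted p = 0.0435 without control replicate 2). Hoxb4, a gene of blood stem cells, had 163, 145 and 144 units in treated and 99.7, 117 and 124 units in control cultures, with a change of 0.38 ± 0.15 (adjusted p = 0.112). Its second probe set changed by 0.36 ± 0.18 (adjusted p = 0.238).

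Hoxc6 and Hoxb3, genes of the upper trunk and the hindbrain, had signal in both groups and were not called. The probe sets of Hoxc6 gave log2 changes of -0.39 ± 0.15 (adjusted p = 0.127), -0.02 ± 0.08 (adjusted p = 0.909) and -0.32 ± 0.42 (adjusted p = 0.702). The brightest of these has a name that marks shared probes, and it passed without treated replicate 1 (-0.54, adjusted p = 0.0342). Hoxb3 had 286, 298 and 338 units in treated and 350.5, 291 and 354 units in control cultures, a change of -0.11 ± 0.11 (adjusted p = 0.616). Hoxa3 had 4 probe sets with changes between -0.33 and 0.90, none of them called, and the mean over them changed by 0.14.

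At the tail end of the clusters Hoxc13 and Hoxd13, dim in control cultures, rose. Hoxc13, a regulator of hair keratins in the hair follicle and nail, had 32.5, 44.7 and 70.9 units in treated cultures, against 7.08, 5.50 and 6.41 units in control cultures. All treated arrays were above all control arrays, but 1 of 3 treated arrays lay above its array median. The log2 change was 1.83 ± 0.32 (SE; limma, adjusted p = 0.00393). Its control signal was below the pseudocount, and the change was 2.57 with the smaller and 0.95 with the larger pseudocount, still called in both.

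Hoxd13, which patterns the digits, had 58.4, 52.1 and 69.0 units in treated and 30.4, 15.2 and 26.6 units in control cultures. The groups did not overlap, and the log2 change was 1.07 ± 0.30 (SE; limma, adjusted p = 0.0398). The second probe set of Hoxd13 had 11.7, 8.92 and 2.58 units in treated and 5.35, 3.99 and 16.2 units in control cultures, a change of -0.04 ± 0.31 (adjusted p = 0.957). On leaving out any 1 array the brighter probe set was not called, with adjusted p-values from 0.0520 to 0.13. Hoxa13 (0.04 ± 0.26, adjusted p = 0.944) and Hoxb13 (0.20 ± 0.17, adjusted p = 0.531), the other genes of group 13, were not called.

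**Figure D3:**
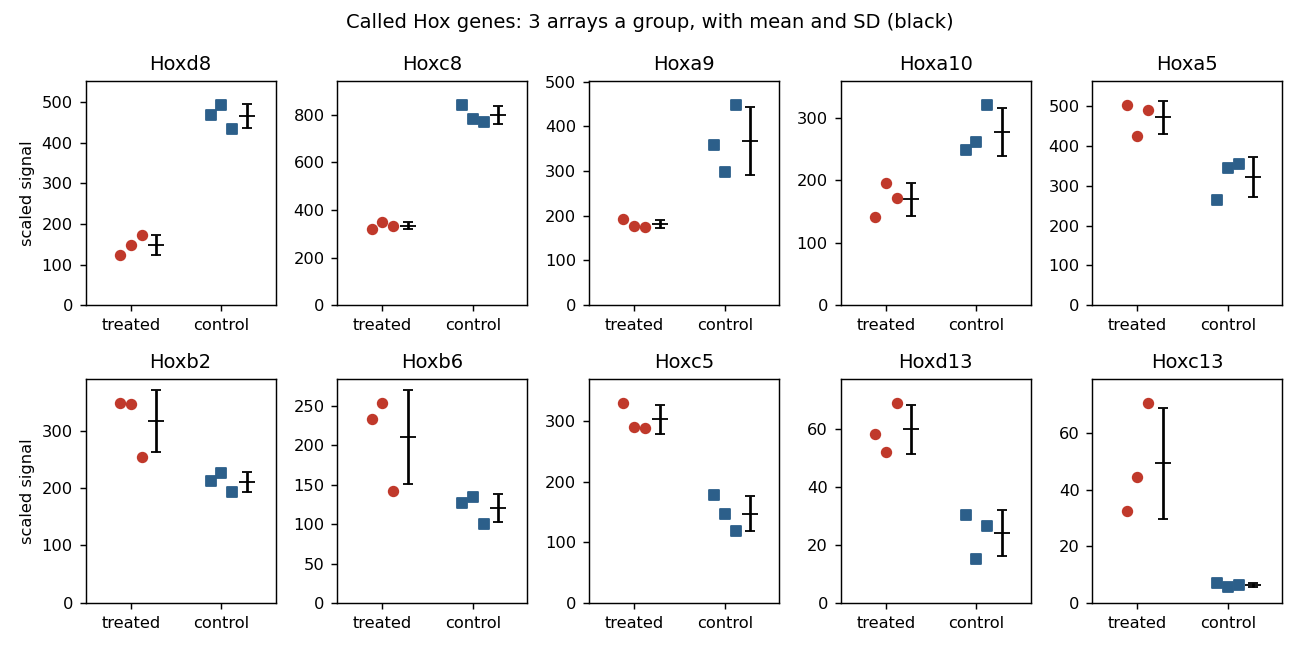
Scaled signal of the 10 called Hox genes on each of 3 treated (red circles) and 3 control arrays (blue squares), with the mean and SD of the group in black and each axis starting at 0. For all 10 the groups did not overlap; the third treated arrays of Hoxb2 and Hoxb6, with 254 and 143 units, came nearest to their controls.

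The remaining genes were mostly dim. Hoxa11, a gene of the forearm and the uterus, had signal in both groups, with 122, 151 and 175 units in treated and 134, 149 and 141 units in control cultures, and a log2 change of 0.06 ± 0.16 (adjusted p = 0.861). Hoxa2, of the hindbrain and branchial arches, had 20.1, 29.1 and 37.3 units in treated and 59.0, 49.5 and 37.7 units in control cultures (-0.61 ± 0.31, adjusted p = 0.241). Hoxa7 had 26.9, 16.2 and 16.4 units in treated and 8.11, 9.06 and 9.36 units in control cultures (0.65 ± 0.26, adjusted p = 0.125). Both are low signals whose groups did not overlap and whose changes did not pass. The changes of the 23 genes that were not called lay between -0.67 and 0.65. Of the 33 genes, 21 lay above the array median on at least 3 of 6 arrays, and Hoxc13 and Hoxd13 are not among them.

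Where a gene had several probe sets, they did not always point the same way. Of 11 such genes, 8 had all their probe sets on the same side of 0, some with changes near 0. Those of Hoxa3, Hoxa10 and Hoxd13 lay on both sides. The share over all genes with several probe sets was not measured. Calls in opposite directions could arise only in the 2 genes with more than 1 called probe set, and arose in 0. Hoxc5 and Hoxd8 were called at a pair of probe sets each, and Hoxa5, Hoxa9, Hoxa10 and Hoxd13 at 1 each. The annotation gives overlapping positions for 6 pairs of Hox genes, among them Hoxa3 with Hoxa4 and Hoxa5, Hoxb3 with Hoxb4, and Hoxd10 with Hoxd11. Signals of overlapping genes may not be separate readings.

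**Figure D4:**
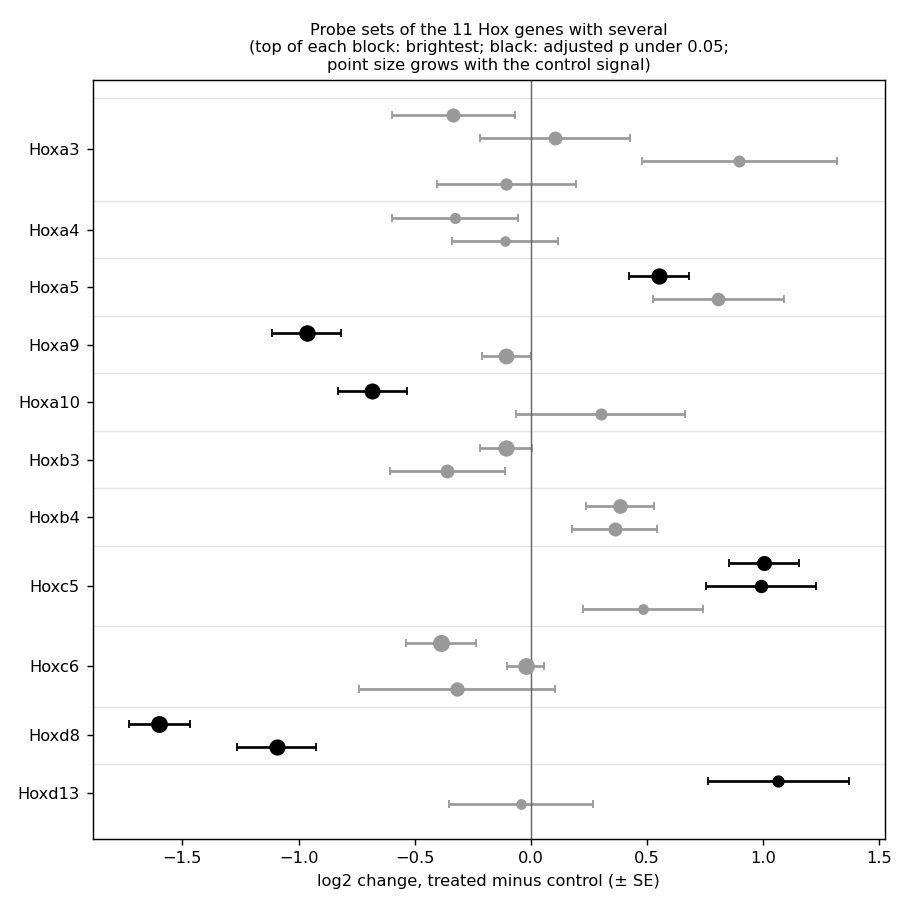
Log2 change with its SE for every probe set of the 11 Hox genes with several, the brightest at the top of each block and called ones in black. The called probe sets of Hoxc5 changed by 1.01 and 0.99 and those of Hoxd8 by -1.60 and -1.09, while the probe sets of Hoxa9 (-0.97 and -0.10), Hoxa10 (-0.68 and 0.30) and Hoxd13 (1.07 and -0.04) differ.

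By cluster, 3 of 9 HoxA genes were called (1 higher, 2 lower), 2 of 9 HoxB genes (both higher), 3 of 7 HoxC genes (2 higher, 1 lower) and 2 of 8 HoxD genes (1 higher, 1 lower). Over all genes 25.2% were called, 12.2% higher and 13% lower, and the shares of the 4 clusters lie on both sides of the first of these. The median log2 change was -0.33 in HoxA, 0.20 in HoxB, -0.26 in HoxC and -0.31 in HoxD. HoxB alone had 0 of 9 genes called lower, beside 13% of all genes. Within HoxA, HoxC and HoxD called genes in both directions lie in the same cluster, for instance Hoxc5 (1.01), Hoxc8 (-1.23) and Hoxc13 (1.83). The difference between clusters was not tested.

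The TALE homeobox genes encode the Pbx, Meis and Pknox proteins, which bind DNA together with Hox proteins. Of 8 measured, 6 fell and 0 rose, beside 13% of all genes and 21.2% of genes with signal in control cultures called lower, and the median log2 change was -0.77 against 0.02 over all genes. Pbx3 had 220.3, 169.7 and 178 units in treated cultures, against 559.9, 500.3 and 743 units in control cultures, a log2 change of -1.61 ± 0.16 (SE; limma, adjusted p = 0.000156). Meis1 had 87.3, 91.5 and 67.7 units in treated and 323, 203 and 165 units in control cultures, a change of -1.34 ± 0.24 (adjusted p = 0.00425). Treated arrays lay below control arrays for all 6 genes that fell. Meis2 (-0.91 ± 0.16), Pbx2 (-0.73 ± 0.14), Pknox2 (-0.80) and Pknox1 (-0.41) were the others. Meis3 changed by -0.37 ± 0.30 and Pbx4 by 0.90 ± 0.34, without passing. Without scaling between arrays, 3 of the 8 fell, and 3 did when probe sets with shared-probe names were left out.

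Polycomb group proteins keep Hox genes silent where they are not used, and trithorax group proteins keep them active. Of 26 Polycomb genes 4 rose and 6 fell, with a median log2 change of -0.19. Of the 26, 25 had signal on all 3 control arrays, and among all such genes 37.4% were called, so a count of this size is near the background. Cbx6, a reader of methylated histone H3, had 244, 309.5 and 280.2 units in treated and 913, 806 and 1061 units in control cultures (-1.70 ± 0.12, SE; adjusted p = 2.96e-05). Phc1 fell by 1.65 ± 0.18 on the log2 scale and the methyltransferase Ezh2 by 0.65 ± 0.096, while Phc2 rose by 0.64 ± 0.073. Bmi1 (-0.55), Rnf2 (-0.76) and Pcgf2 (-0.91) also fell, and Eed (0.44), Aebp2 (0.48) and Pcgf5 (0.56) rose. The genes thus moved both ways, and without scaling between arrays 0 rose and 3 fell.

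Among 13 trithorax group and H3K27 demethylase genes 3 fell and 0 rose. All 13 had signal on all 3 control arrays, where 37.4% of all genes were called, 21.2% lower. Kmt2e had 238, 263 and 239 units in treated and 693, 789.6 and 962 units in control cultures (-1.67 ± 0.12, SE; adjusted p = 2.98e-05). Kmt2c (-1.49 ± 0.12) and the H3K27 demethylase Kdm6b (-0.77 ± 0.11) fell as well. Kmt2a, the family member best known for holding Hox genes active, changed by -0.09 ± 0.13 (adjusted p = 0.722).

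Of 14 genes that act upstream of the clusters 1 rose and 1 fell, and 6 of the 14 had signal on all 3 control arrays. Over all genes 25.2% were called, 12.2% higher and 13% lower, so the list as a whole did not exceed the background. The retinoic acid receptor Rarb, itself a retinoic acid target, had 127, 115 and 111 units in treated and 10.4, 40.1 and 24.2 units in control cultures (1.98 ± 0.34, SE; adjusted p = 0.00379). The insulator protein gene Ctcf had 243, 181 and 249 units in treated and 530.2, 396 and 454 units in control cultures (-1.01 ± 0.15, adjusted p = 0.00161). Both sets of arrays were separate.

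Of 30 other transcription factors that mark position in mesenchyme, 8 fell and 1 rose, with a median log2 change of -0.26. Over all genes 25.2% were called, 13% lower. Prrx2 changed by -1.65 ± 0.12, Prrx1 by -1.13 ± 0.083 and Irx3 by -1.55 ± 0.14 (SE). Msx2, a target of BMP signalling, was the riser, with 255, 249.9 and 187 units in treated and 39.5, 45.6 and 30.4 units in control cultures (2.32 ± 0.20, adjusted p = 8.46e-05). Prrx1 also stands among the fibroblast markers above.

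**Figure D5:**
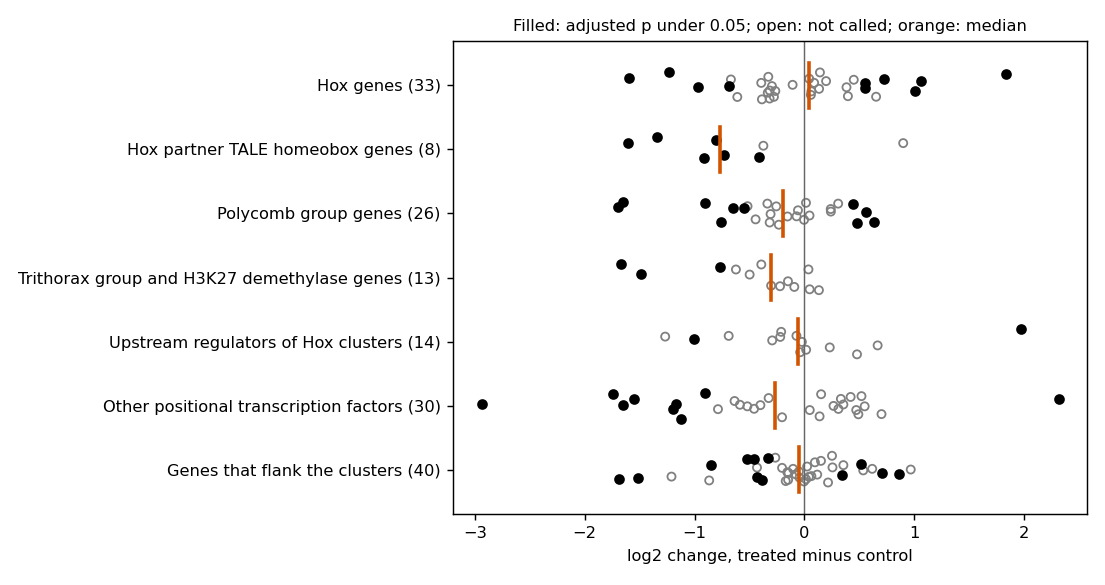
Log2 change, treated minus control, of each gene (points) of the Hox set, 5 related lists and the genes that flank the clusters, with the number measured in brackets; filled points have an adjusted p under 0.05 and the orange line is the median. Hox genes spread to both sides of 0 (median 0.04), while the TALE genes lie mostly below it (median -0.77).

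The genes next to the clusters were taken as the 5 nearest measured protein-coding genes on each side. Of 40, 4 rose and 8 fell, beside 25.2% of all genes called, and the median log2 change was -0.05. Signal on all 3 control arrays was present for 31 of the 40. Among all such genes 37.4% were called, 16.2% higher and 21.2% lower, so these counts are near the background. On the side of HoxD, Lnpk (-0.52 ± 0.091, SE) and Mtx2 (-0.46 ± 0.084), which lie 88.8 and 60.7 kb from the cluster, fell. Evx2, a homeobox gene 6.70 kb from Hoxd13, changed by 0.36 ± 0.14 (adjusted p = 0.13), and Evx1 beside HoxA by -0.20 ± 0.43 (adjusted p = 0.824). The other genes that fell were Atf2 (-0.39) and Ttc30b (-1.69) beside HoxD, Cbx1 (-0.85) and Copz2 (-1.51) beside HoxB, and Atp5g2 (-0.43) and Hnrnpa1 (-0.33) beside HoxC. Those that rose were Hibadh (0.34) beside HoxA, Atp5g1 (0.51) and Snx11 (0.71) beside HoxB, and Tarbp2 (0.86) beside HoxC. Without scaling between arrays 3 of the 40 were called.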

How the data were processed

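RNA of 6 fibroblast cultures was hybridised to Affymetrix arrays, 1 per culture. The deposited values are MAS5 signal intensities, per the submitters' processing notes, and neither detection calls nor a target intensity are given in the sources used here, so low signal was not separated from background. The deposited table was linear and its trimmed means differed between arrays. Leaving out 64 control probe sets, each array was scaled to a 2% trimmed mean of 193.2 units, the mean over arrays, and log2(signal + 9.66) was taken, where the pseudocount is 0.05 of that mean. This scale understates changes of dim probe sets. All 45037 probe sets were fitted by lmFit and eBayes and an intensity trend in the prior variance (limma 3.58.1, R 4.3.3), group as the sole term, two-sided, with Benjamini-Hochberg adjustment over all of them and a threshold of 0.05.

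Genes were named through the platform annotation, updated by Entrez identifier to GRCm38.p6. Each gene was read at its brightest probe set, by mean log2 signal over the 6 arrays. The rule for naming took all called Hox genes, those above the array median on all arrays of a group, up to 4 called members of each list, by smallest p, and the called flanking genes. Any other gene in the text was picked with its values in view. The members and lists were chosen with earlier results of these data known. Arrays with these 45037 probe sets were simulated in 10 runs, with 200 probe sets changed in each. The fit recovered 19.0% of 1.5-fold, 51.3% of 2-fold and 99.3% of 4-fold changes, and 4.49% of its calls were false. For changed probe sets above the median the recovered shares were 34.7%, 74.7% and 100%. In the data 18.9% of probe sets were called, a far larger share than was changed in the simulation. The recovery at that share was not measured. Alternatives covered scaling, pseudocount, filters, variance model, probe sets per gene, pairing and leaving out each array. The labels say that cells were explanted for each replicate, and p-values measure the spread between these cultures. The number of arrays limits the precision.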

Additional observations from a re-analysis of the deposited data

How the results depend on the processing

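Of the Hox calls, those of Hoxc8, Hoxd8, Hoxa9, Hoxc5 and Hoxc13 held in every alternative that could be run for them, 16 each and 14 for Hoxc13, which both filters on dim probe sets left out. Without scaling between arrays 5 Hox genes were called, 2 of them higher, with 1 in HoxA, 0 in HoxB and 1 in HoxD, and 3 of the TALE, 3 of the Polycomb and 2 of the upstream genes fell, 0 Polycomb genes rose and 3 flanking genes were called. With the filter on dim probe sets by 3 of 6 arrays or by mean signal, 1 HoxD gene was called, 6 trithorax genes fell and the median Hox change was -0.11. With no intensity trend 3 Hox genes rose, 0 HoxB genes were called, 2 Polycomb genes rose and 7 flanking genes were called. With the mean of all probe sets of a gene, 1 HoxD gene was called and 2 Polycomb genes rose. With quantile normalization 1 HoxD gene was called, and with the larger pseudocount 1 HoxB gene. Without shared-probe probe sets 1 HoxA gene and 1 HoxB gene were called and 3 TALE genes fell. On leaving out 1 array, 2 to 5 Hox genes rose (2 without treated replicate 1, 3 without treated replicate 2 or control replicate 1 or 3), 0 to 2 HoxB genes and 1 HoxD gene were called, 1 to 2 upstream genes fell (2 without control replicate 1) and the median Hox change lay between -0.083 and -0.00091. Signs turned for Hoxa3 (0.14, mean of probe sets), Hoxa10 (0.30, without shared-probe probe sets), Hoxa11 (-0.0086 without scaling, and -0.055 to 0.19 on leaving out 1 array, negative without treated replicate 3) and Hoxb9 (-0.0069 without scaling, and -0.078 to 0.17 on leaving out 1 array, negative without control replicate 3). The causes were not tested.

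Samples with the same replicate number had deviations from their group means that correlated at 0.10, 0.10 and 0.04. Those with different numbers correlated at -0.081 to -0.015, so each treated array correlated best with the control of its own number. The labels do not say whether cultures of the same number share an explant. The main fit did not take the numbers as pairs, and these small correlations do not settle whether they are. With the replicate number as a block 11 Hox genes were called, 6 higher and 5 lower, the addition being Hoxc6 (-0.39, adjusted p = 0.0219), and 5 trithorax genes fell. Of the other list counts, none moved by over 1.5 times.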

Other observations

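Probe sets of the clusters outside the 33 genes were read as well. The antisense transcript Hoxb5os, in the HoxB cluster, had 147, 139 and 184 signal units in treated cultures, against 301, 276 and 377 units in control cultures, a log2 change of -0.98 ± 0.15 (SE; limma adjusted p = 0.00212), while Hoxb5 itself was dim and changed by 0.09 ± 0.41 (adjusted p = 0.924). All treated arrays of Hoxb5os lay below all control arrays. Of 3 probe sets that list a pair of Hox genes, 2 list the same pair, of paralogue groups 1 to 7 in HoxD. Of these, 1 was called, with a log2 change of -1.51 ± 0.32 (adjusted p = 0.0107), and the other changed by -1.17 ± 0.43 (adjusted p = 0.102), with all treated arrays below all control arrays in both. The genes are not named because the probe sets do not tell them apart. The antisense transcripts Hoxa11os and Hoxd3os1 had a pair of probe sets each, with changes between -0.64 and 0.40 and none called. These probe sets were looked at after the Hox values were known.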
